A study of Mus musculus with 8 samples.

Results

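The 35 genes described here encode glutamate receptor subunits and the auxiliary proteins that bind to them, measured in the cerebral cortex of mice that carry the L192P substitution in Argonaute 2 and of wild-type mice. They were picked by gene symbol from the 55416 genes of the count table, and all 35 were found. They comprise 4 AMPA, 7 NMDA, 5 kainate and 1 delta receptor subunit gene, 6 metabotropic receptor genes, and the auxiliary genes of 6 transmembrane AMPA receptor regulatory proteins (TARPs), 2 Shisa proteins, 2 cornichons and 2 Neto proteins. Ago2 encodes Argonaute 2, the protein that carries a miRNA to matching sites in mRNAs and lowers their output.

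Poly(A) RNA from cortex was sequenced in 4 libraries of AGO2_L192P/+ mice (L192P) and 4 libraries of wild-type mice (WT). The knock-in was made by CRISPR/Cas, its founders were crossed to C57/Bl6 mice, and heterozygotes came from matings with wild-type animals, so 1 Ago2 allele stayed wild-type. The labels give neither the age nor the sex of the animals and do not state that each library came from a separate animal, so the p-values measure the spread between these libraries, which may be technical. Only heterozygotes that survived to sampling could be measured.

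Glutamate opens AMPA receptors for fast excitatory transmission, and NMDA receptors, which also need a depolarized membrane, let in calcium and start synaptic plasticity. Kainate receptors tune release and excitability, delta receptors organize synapses, and metabotropic receptors act through G proteins on both sides of the synapse. TARPs, Shisa proteins, cornichons and Neto proteins ride with the channels and set their delivery to the membrane, gating and drug response.

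The miRNA match sites of the members that passed a test in at least 1 fit below are shown first, because Argonaute 2 acts through such sites. Mature miRNAs are from RefSeq (GRCm38.p6) with the seed, bases 2 to 8, in capitals.
mmu-miR-26a-5p: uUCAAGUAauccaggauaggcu
mmu-let-7a-5p: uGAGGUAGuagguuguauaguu
mmu-miR-181a-5p: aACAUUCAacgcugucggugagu
mmu-miR-125b-5p: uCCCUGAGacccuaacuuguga
mmu-miR-5121: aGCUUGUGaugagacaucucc
The 3′ UTR windows of 30 bases below are from GRCm39, read 5′ to 3′ on the minus strand, where all 5 genes lie, and the capitals mark the 7 bases that pair with the seed.
Cacng5, miR-26-5p, chr11:107768060-107768089: cttagccattgtTACTTGAccacatcttct
Grin3a, let-7-5p, chr4:49663839-49663868: ctggaagtttggCTACCTCtaggcatgtga
Grm2, miR-181-5p, chr9:106520741-106520770: cagacatgggacTGAATGTtacctgttcac
Grm3, miR-125-5p, chr5:9534069-9534098: ttttaaaataaaatagtgttCTCAGGGttc
Cnih2, miR-5121, chr19:5142891-5142920: tgaataaactactgaaaacaCACAAGCccc
Each of these 5 genes held a match to 1 of the 9 families searched. Grin2d, with a UTR of 900 bases, and Grin2c, with 405 bases, held none, so no window is shown for them.

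Of the 35 genes, 2 were higher in L192P cortex and 0 were lower at a DESeq2 adjusted p under 0.05, with all 35 entering the test. They were Grin2d, which encodes the NMDA receptor subunit GluN2D, and Cacng5, which encodes the TARP γ-5. That is 5.71% of the members, beside 1.36% of all 18627 genes tested and 0.789% called in the higher direction. Among the 4477 genes with a mean between the members' lower and upper quartile, 23 were called higher and 47 lower. Grin2d and Cacng5 themselves lay below that range, with means of 305 and 341 normalized counts over all libraries. The members were chosen with earlier results of these data known, so these shares are a description only. At an unadjusted p under 0.05 there were 7 members (20% of them), 3 higher and 4 lower, beside 9.44% of all genes and 530 of the 4477. The calls depended on the tool, since edgeR and limma-voom called 0 members each, with 7 and 6 members at an unadjusted p under 0.05 and 0.314% and 0.266% of all genes called. These fits did not pair libraries by replicate number. With that number as a block, DESeq2 called 4 members, 1 higher and 3 lower (11.4%, beside 4.25% of all genes).

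Most members lay close to zero. The median log2 fold change over the 35 genes was -0.05, beside 0.0019 over all genes tested and -0.01 over the 4477 genes whose mean lay between the lower and upper quartile of the members. There were 14 members above zero and 21 below. Of the 33 genes without a call, 31 had a 95% interval within 0.5 log2 units of zero, and the exceptions were Grin3b and Shisa6. The groups did not overlap for 2 members, Grin2d and Grin3a, which is 5.71% of them beside 5.97% of all genes. In the 4 pairs of libraries that share a replicate number, 12 members moved the same way each time (34.3%, beside 23.8% of all genes), 3 of them higher in L192P and 9 lower.

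**Figure D1:**
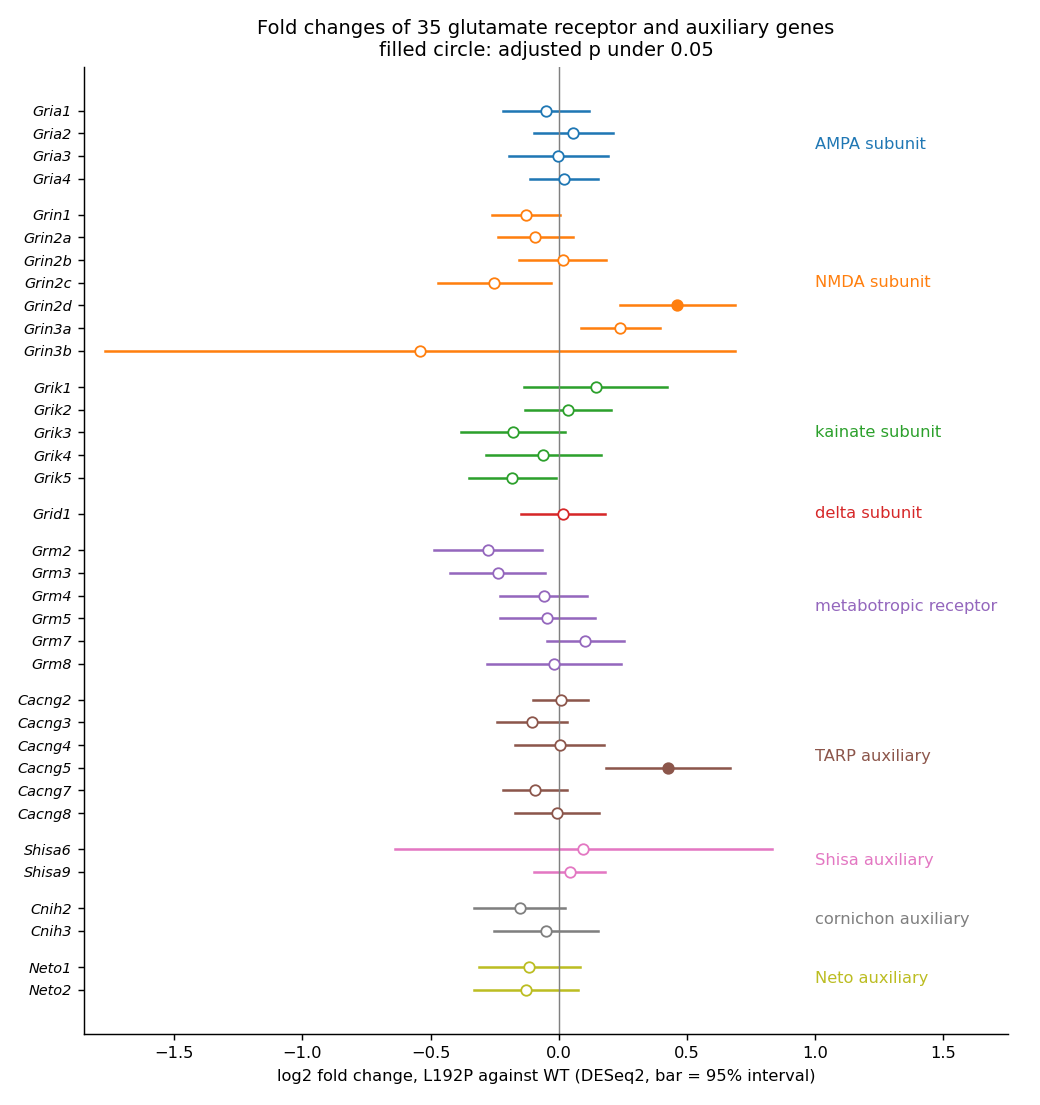
Log2 fold change of each of the 35 genes in L192P against WT (circles, DESeq2) with its 95% interval (bars), grouped by class, with filled circles for an adjusted p under 0.05. Grin2d (0.46) and Cacng5 (0.43) are the 2 filled circles, and the widest bars belong to Grin3b and Shisa6.

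Library totals ran from 20396357 to 43575900 counts. The Ago2 mRNA had means of 2291 ± 75.1 normalized counts in the L192P libraries and 2247 ± 130 in the WT libraries (n = 4, log2 fold change 0.03, adjusted p = 0.968). Xist was at 0.934 and 1.82 normalized counts in replicate 1 of L192P and WT and between 5185 and 7257 in the other 6 libraries, so results are also given for replicates 2 to 4. The tissue label was checked against 12 markers of cortical excitatory neurons, all of which were tested. None of the 12 was called by DESeq2, and 5 had an unadjusted p under 0.05. Log2 fold changes were below zero for 10 of the 12 and above zero for 2, Foxp2 (0.26) and Rasgrf2 (0.16). Those 2 had the smallest unadjusted DESeq2 p of the list (0.00902 and 0.00478). The summed normalized count of the 12 was 48472 to 53709.7 in L192P and 53869 to 55922 in WT, with no overlap. Slc17a7 was the largest part of it, with means of 30262 in L192P and 33185 in WT. Of 10 hypothalamus markers, 8 were tested and 3 were higher in L192P, namely Avp, Oxt and Otp, and the summed level was 930.5, 323, 1379 and 876 in L192P replicates 1 to 4 and 304, 210.1, 184 and 316 in WT. The markers Pmch and Hcrt reached 262 and 178 in L192P and were at 0 in its lowest library, against at most 3.64 in WT. Among 8 striatal projection neuron markers, Penk was lower and the sums did not overlap (24911 to 30561 in L192P and 32040.2 to 38439 in WT). Among 12 interneuron markers, Gad2 was higher (log2 fold change 0.34, adjusted p = 0.0235), and 6 of the 12 had an unadjusted p under 0.05, of which 4 were on the higher side and Pvalb (-0.22) and Lamp5 (-0.30) on the lower. The interneuron sums overlapped (37532 to 41878 in L192P and 36997 to 40294 in WT). Among the 8 genes listed for thalamus, Calb2 was called higher and Cplx3 lower, with sums of 4302 to 7632 in L192P and 4320 to 4728 in WT. Of these 8 genes, 6 had log2 fold changes above zero and 2 below (median 0.59). Calb2 was also on the hippocampus list. In such bulk tissue, fewer cells of a type and less RNA per cell cannot be told apart.

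The AMPA subunits showed no called difference. Gria1 encodes GluA1, the subunit inserted during potentiation. Its normalized count, the count divided by the library's size factor, was 9137, 8262, 10179 and 9561 in L192P replicates 1 to 4 and 10068.5, 8852, 10779 and 8736 in WT replicates 1 to 4. Replicate 3 was the highest library of either genotype, and the groups overlapped (log2 fold change -0.05, SE 0.09, adjusted p = 0.953). Gria2 encodes GluA2, whose edited form makes the channel nearly impermeable to calcium. It was at 13760.5, 12152.5, 12748 and 14421 in L192P and 14129.8, 11388, 12624 and 12894 in WT. Its groups overlapped too, with a log2 fold change of 0.06 and a 95% interval from -0.10 to 0.21. Gria3 and Gria4, the other 2 pore-forming subunits, had log2 fold changes of -0.0013 and 0.02. The 95% intervals of the 4 genes all lay between -0.22 and 0.21.

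The NMDA subunits held the largest called change. Grin2d (ENSMUSG00000002771, minus strand of chromosome 7, 45481304 to 45527802 on GRCm39) encodes a subunit that gives slow, weakly magnesium-blocked currents and that in adult cortex is found mainly in interneurons. It was at 343, 371, 383 and 322 normalized counts in L192P replicates 1 to 4 and 235, 289, 263 and 238 in WT. Every L192P library lay above every WT library. The means were 355 ± 27.4 and 256 ± 25.4 (SD, n = 4), a 1.38-fold difference with a 95% interval from 1.18 to 1.61 (log2 fold change 0.46, SE 0.11, DESeq2 adjusted p = 0.00891). With the replicate number as a block it stayed called at an adjusted p of 0.00946. It was called in 11 of 17 alternatives, with log2 fold changes from 0.42 to 0.53 and adjusted p from 0.00456 to 0.105. The call was lost with edgeR (adjusted p = 0.0823) and limma-voom (0.105), on replicates 2 to 4 (0.0519), and without L192P replicate 2 (0.0825), L192P replicate 3 (0.0931) and WT replicate 4 (0.0921) in turn.

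The exons of Grin2d overlap those of the antisense gene Gm45441 over 643 bases, and no source used here says whether counting used strand. Gm45441 had a mean of 75.9 ± 3.13 in the L192P libraries and 74.3 ± 6.40 in the WT libraries (normalized counts, SD, n = 4), with a log2 fold change of 0.04. The L192P libraries with the highest and the lowest hypothalamus marker sum, replicate 3 at 1379 and replicate 2 at 323, had the highest and the next highest Grin2d count (383 and 371 normalized counts), and the highest WT library was at 289. The part of the hypothalamus, interneuron and striatal markers in the Grin2d difference was not tested.

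Grin3a encodes GluN3A, a subunit that lowers calcium entry and is most abundant in young brain. It was at 1032, 1008, 943 and 997 in L192P and 931.5, 782, 828 and 835 in WT, so the groups did not overlap. L192P replicate 3 at 943 and WT replicate 1 at 932 were the nearest libraries of opposite genotype. The log2 fold change of 0.24 (SE 0.08) had an adjusted p of 0.111 and was not called. Without WT replicate 1 the adjusted p was 0.0149. Groups of 4 libraries without overlap occurred in 5.97% of all genes tested.

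Grin1 encodes GluN1, the obligatory subunit of the receptor. It was at 6102, 6654, 6232 and 5981 in L192P and 6177, 7444, 6875 and 6784 in WT. WT replicate 1 lay inside the L192P range and the other 3 WT libraries above it. The log2 fold change was -0.13 (SE 0.07, adjusted p = 0.558), and L192P was the lower library in all 4 pairs. Grin1 overlaps the antisense genes Grin1os and Lrrc26 over 1314 bases.

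Grin2a and Grin2b encode GluN2A and GluN2B, the main glutamate-binding subunits of the forebrain, with GluN2A rising as synapses mature. Grin2a was at 3899.5, 4073, 4459 and 4516 in L192P and 4266, 4174, 4775 and 4855 in WT. Grin2b was at 7701, 8770.5, 9327 and 9821 in L192P and 8279, 8278, 8719.7 and 9989 in WT. Both pairs of groups overlapped, with log2 fold changes of -0.09 and 0.01 (adjusted p = 0.812 and 0.993). The log2 ratio of Grin2a to Grin2b counts, which needs no scaling between libraries, was -0.98, -1.11, -1.06 and -1.12 in L192P and -0.96, -0.99, -0.87 and -1.04 in WT. L192P was lower in all 4 pairs. The means were -1.07 ± 0.06 and -0.96 ± 0.07, and the difference of -0.105 did not pass a two-sided exact permutation test (p = 0.0857, 0.171 adjusted over 2 ratios, smallest possible 0.0286).

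Grin2c encodes GluN2C, which in forebrain is found largely in astrocytes and thalamus. Its log2 fold change was -0.25 (SE 0.11, adjusted p = 0.386), and it was called lower on replicates 2 to 4 (adjusted p = 0.0483). Grin3b, which encodes GluN3B, had 1.20 to 15.9 normalized counts per library, so its log2 fold change of -0.54 has an interval from -1.77 to 0.69. No difference was detectable for it at this depth.

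**Figure D2:**
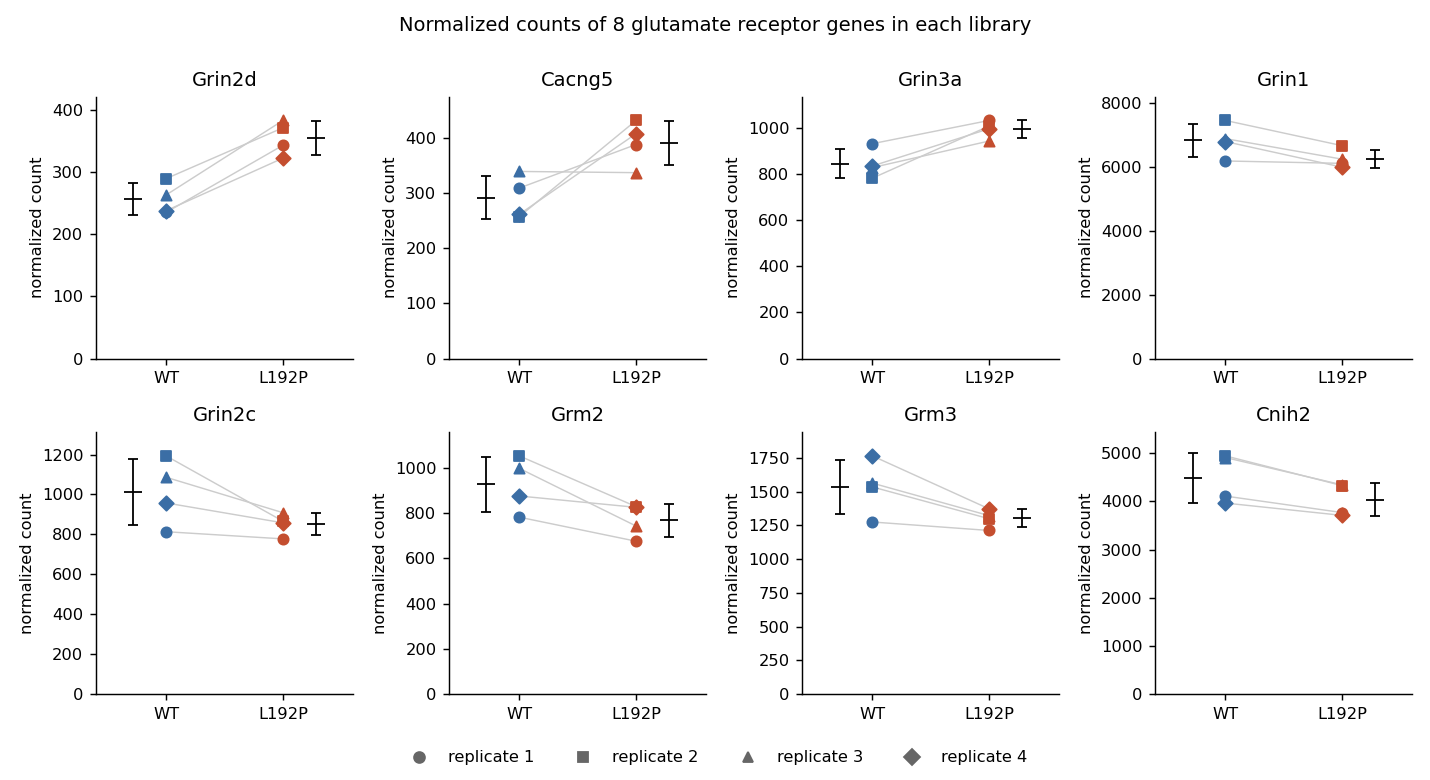
Normalized counts of 8 of the genes in each library (symbols by replicate number, lines joining the same number), with the mean and SD of each genotype (n = 4) at the sides. Grin2d and Grin3a show no overlap between WT and L192P, Cacng5 overlaps only through replicate 3, and the other 5 genes lie lower in L192P in each of the 4 pairs.

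None of the 5 kainate subunits was called by DESeq2, and 1 had an unadjusted p under 0.05. That gene, Grik5, encodes the high-affinity subunit GluK5. It was at 4541, 4836, 4767 and 4419 in L192P and 4771, 6305, 5037 and 4914 in WT. L192P was lower in all 4 pairs, the groups overlapped, and WT replicate 2 stood highest (log2 fold change -0.18, SE 0.09, adjusted p = 0.472). Grik1 to Grik4, which encode GluK1 to GluK4, had log2 fold changes of 0.14, 0.04, -0.18 and -0.06. Grid1 encodes the delta subunit GluD1, which binds cerebellins across the synapse. It was at 1740.5, 1529, 1530 and 1763 in L192P and 1772, 1495, 1709.8 and 1510.2 in WT, with a log2 fold change of 0.02 (95% interval -0.15 to 0.18).

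Among the 6 metabotropic receptors, 0 passed the adjusted threshold in DESeq2 and 2 had an unadjusted p under 0.05, both lower in L192P. They were the group II receptors, which lower cAMP and damp glutamate release. Grm2 was at 676, 829.6, 744 and 826.5 in L192P and 783, 1055, 999 and 877 in WT. L192P was lower in all 4 pairs, and only WT replicate 1 fell inside the L192P range (log2 fold change -0.27, SE 0.11, adjusted p = 0.255). Grm3, also expressed by astrocytes, was at 1213, 1299.6, 1322.5 and 1373 in L192P and 1276, 1536, 1564 and 1767 in WT. Replicate 1 was the lowest library of either genotype (log2 fold change -0.24, SE 0.09, adjusted p = 0.274).

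With the replicate block, 4 members were called (11.4%, beside 4.25% of all genes in that fit). Grin2d was higher, and Grm3 (adjusted p = 0.0354), Grm2 (0.0483) and Cnih2 (0.0483) were lower, while Cacng5 was no longer called (0.0529). On replicates 2 to 4 alone, 2 members were called (5.71%, beside 3.46%), Grm3 (0.0190) and Grin2c (0.0483), both lower. Without WT replicate 1, 6 members were called (beside 3.24% of all genes), Grin2d, Grin3a and Cacng5 higher and Grm2, Grm3 and Grin2c lower. The summed level of 10 astrocyte markers, of which DESeq2 called 0 and 0 had an unadjusted p under 0.05, was 28516 and 30657 in replicate 1 of L192P and WT and at least 41743 in the other 6 libraries. Its part in the Grm3 and Grin2c values, which were also lowest in replicate 1 of either genotype, was not tested.

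**Figure D3:**
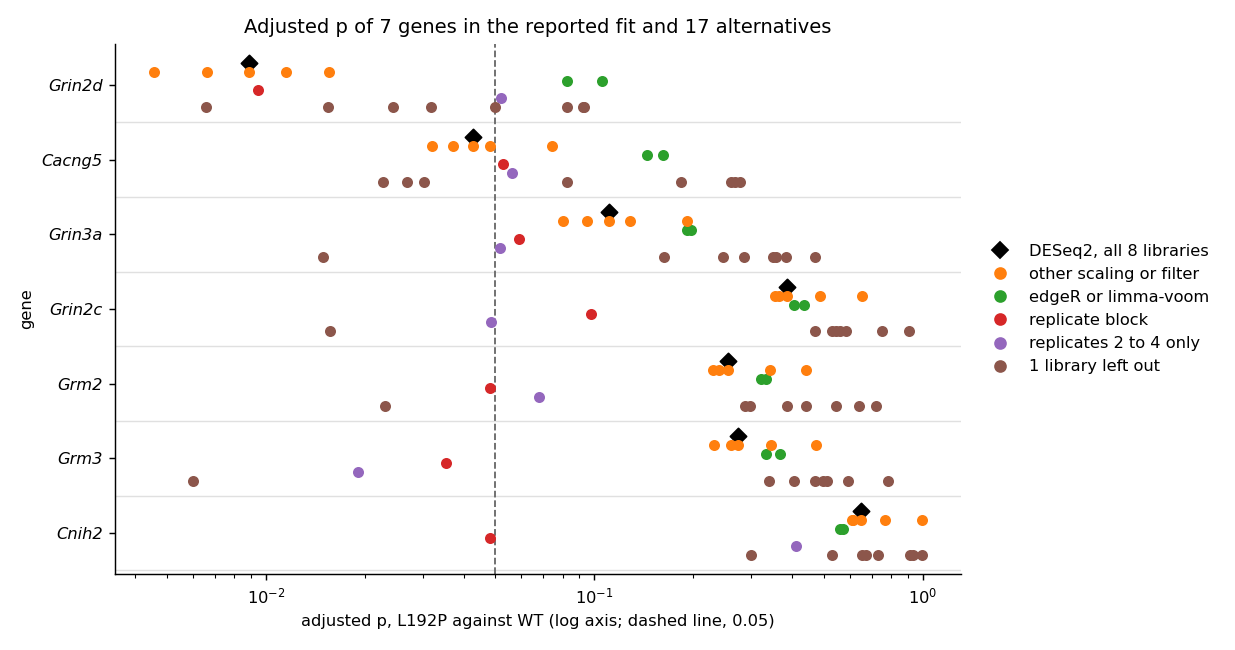
Adjusted p of 7 genes in DESeq2 on all 8 libraries (diamonds) and under 17 alternatives (circles, coloured by kind) on a log axis, with a dashed line at 0.05. Grin2d lies left of the line in 11 alternatives and Cacng5 in 7, while Grm3, Grm2, Grin2c, Grin3a and Cnih2 cross it in 3, 2, 2, 1 and 1.

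Grm5 encodes mGlu5, the main postsynaptic receptor that couples to phospholipase C. It was at 4281, 3716, 3926 and 4702 in L192P and 4924, 3729, 4191 and 4313 in WT. The groups overlapped almost fully (log2 fold change -0.05, adjusted p = 0.967). The presynaptic group III receptors Grm4, Grm7 and Grm8 had log2 fold changes of -0.06, 0.10 and -0.02, and the Grm7 count was higher in L192P in all 4 pairs.

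Of the 6 TARP genes, 1 was called. Cacng5 (ENSMUSG00000040373, minus strand of chromosome 11, 107765431 to 107811030 on GRCm39) was at 388, 431, 337 and 407 in L192P and 309, 257, 339 and 261 in WT. The groups overlapped only through replicate 3, where L192P (337) was just below WT (339). The means were 391 ± 40.2 and 291 ± 39.4 (SD, n = 4), a 1.34-fold difference with a 95% interval from 1.14 to 1.59 (log2 fold change 0.43, SE 0.12, DESeq2 adjusted p = 0.0428). It was called in 7 of 17 alternatives, with log2 fold changes from 0.36 to 0.50 and adjusted p from 0.0228 to 0.277. Besides the block, the call was lost with edgeR (0.162), limma-voom (0.144), independent filtering off (0.0743) and replicates 2 to 4 (0.0562), and on leaving out replicate 1, 2 or 4 of L192P (0.0824, 0.269 and 0.183) and replicate 2 or 4 of WT (0.277 and 0.261). The libraries with the highest and the lowest hypothalamus marker sum of L192P, replicates 3 and 2, had the lowest and the highest Cacng5 count of that genotype (337 and 431), and the part of the marker genes in the difference was not tested.

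Cacng5 shares no exon with another annotated gene. Its neighbour Cacng4, 79.8 kb away, had a log2 fold change of 0.0031 (SE 0.09), with means of 1607 ± 156 in L192P and 1602 ± 136 in WT. Cacng7, which encodes γ-7, a type II TARP as γ-5 is, was at 3690.3, 4031, 3727 and 3829.6 in L192P and 3769, 4375, 3965 and 4184 in WT. L192P was lower in all 4 pairs by a small margin (log2 fold change -0.09, adjusted p = 0.739). Cacng8, 22.5 kb from Cacng7, and the stargazin gene Cacng2 had log2 fold changes of -0.01 and 0.01. Cacng3, the gene of γ-3, had a log2 fold change of -0.10.

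The remaining auxiliary genes were not called. Shisa9, which encodes CKAMP44, a protein that deepens AMPA receptor desensitization, was at 1541.5, 1402, 1448 and 1536 in L192P and 1385, 1422, 1375 and 1582 in WT. Shisa6 ran from 323 to 905 normalized counts, was highest in replicate 3 of either genotype, and had a 95% interval from -0.64 to 0.83. The summed hippocampus markers were also highest in replicate 3 (9434 in L192P and 8219 in WT), and their part in the Shisa6 spread was not tested. Cnih2 encodes a cornichon that carries AMPA receptors out of the endoplasmic reticulum and slows their closing. It was at 3767, 4327, 4342 and 3709 in L192P and 4110.5, 4946, 4911 and 3965 in WT. L192P was lower in all 4 pairs and the groups overlapped (log2 fold change -0.15, adjusted p = 0.648). Its relative Cnih3 had a log2 fold change of -0.05.

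Neto1 and Neto2 encode single-pass proteins that slow kainate receptor decay. Neto1 was at 3557, 2813, 2987 and 3116 in L192P and 4011, 2896, 3336 and 3267 in WT. Neto2 was at 2387, 2116, 1847 and 2265 in L192P and 2664, 2082, 2094 and 2581 in WT. Both had overlapping groups, with log2 fold changes of -0.11 and -0.13, and replicate 1 was the highest library of either genotype.

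The log2 ratio of Gria1 to Gria2 counts was -0.59, -0.56, -0.32 and -0.59 in L192P replicates 1 to 4 and -0.49, -0.36, -0.23 and -0.56 in WT. L192P was lower in all 4 pairs, yet the group means of -0.52 ± 0.13 and -0.41 ± 0.15 overlapped within their spread. The difference of -0.11 had a two-sided exact permutation p of 0.314 (0.314 adjusted over 2 ratios).

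**Figure D4:**
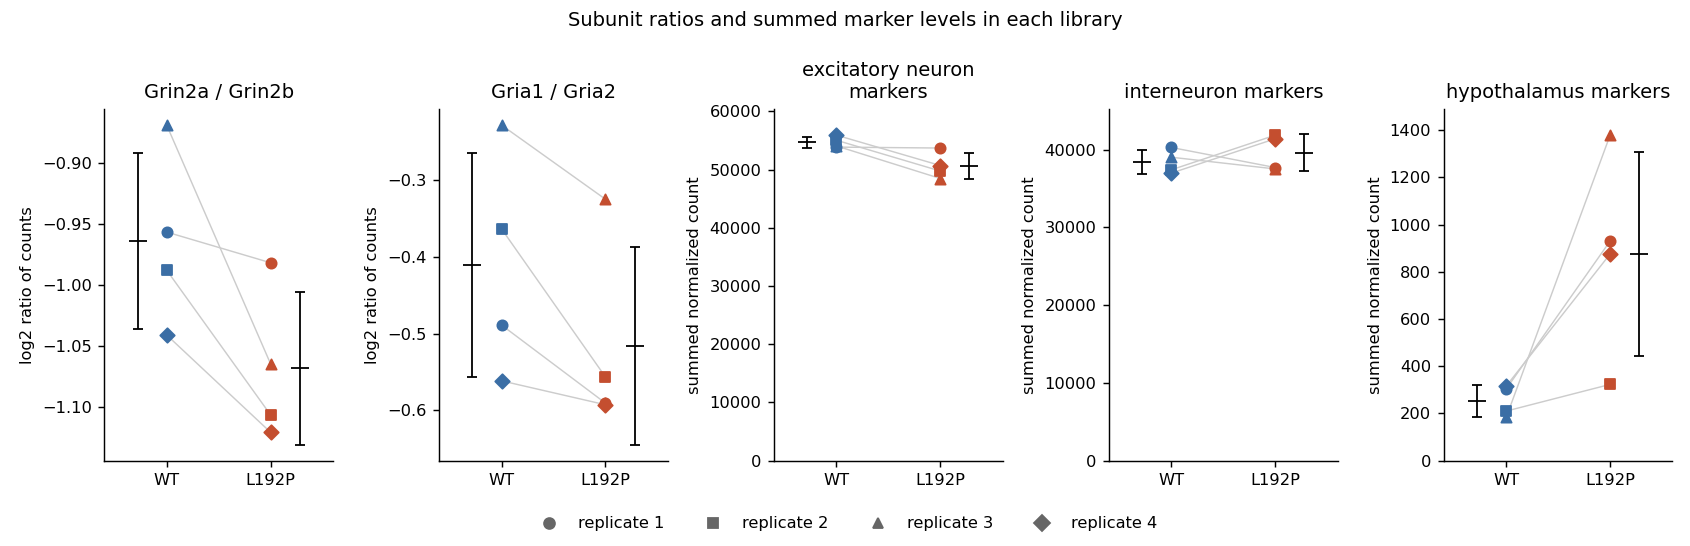
Log2 ratio of Grin2a to Grin2b and of Gria1 to Gria2 counts, and the summed normalized counts of 3 marker lists, in each library (symbols by replicate number, lines joining the same number), with the mean and SD of each genotype (n = 4) at the sides. Both ratios are lower in L192P in all 4 pairs while the groups overlap, and the excitatory neuron and hypothalamus sums do not overlap between WT and L192P.

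Levels can be compared between genes only per length. Per kilobase of annotated exon in WT, Cnih2 stood highest at 1907 ± 220.3 normalized counts (SD, n = 4), followed by Gria1 at 1172 ± 120.2 and Cacng7 at 1029 ± 66.5. Grin1 at 615 ± 46.8 was above every other NMDA subunit, with Grin2b at 346 ± 31.8 and Grin2a at 252 ± 19.4. Both called genes lay near the bottom of the order. Grin2d was at 32.6 ± 3.23 in WT, above only Grin3b, and at 45.1 in L192P, and Cacng5 was at 66.7 ± 9.02 in WT and 89.4 in L192P, the lowest TARP. With the longest annotated transcript as the length, the top gene stayed the same in 7 of the 8 classes that hold more than 1 gene, and Neto2 passed Neto1 in the other.

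**Figure D5:**
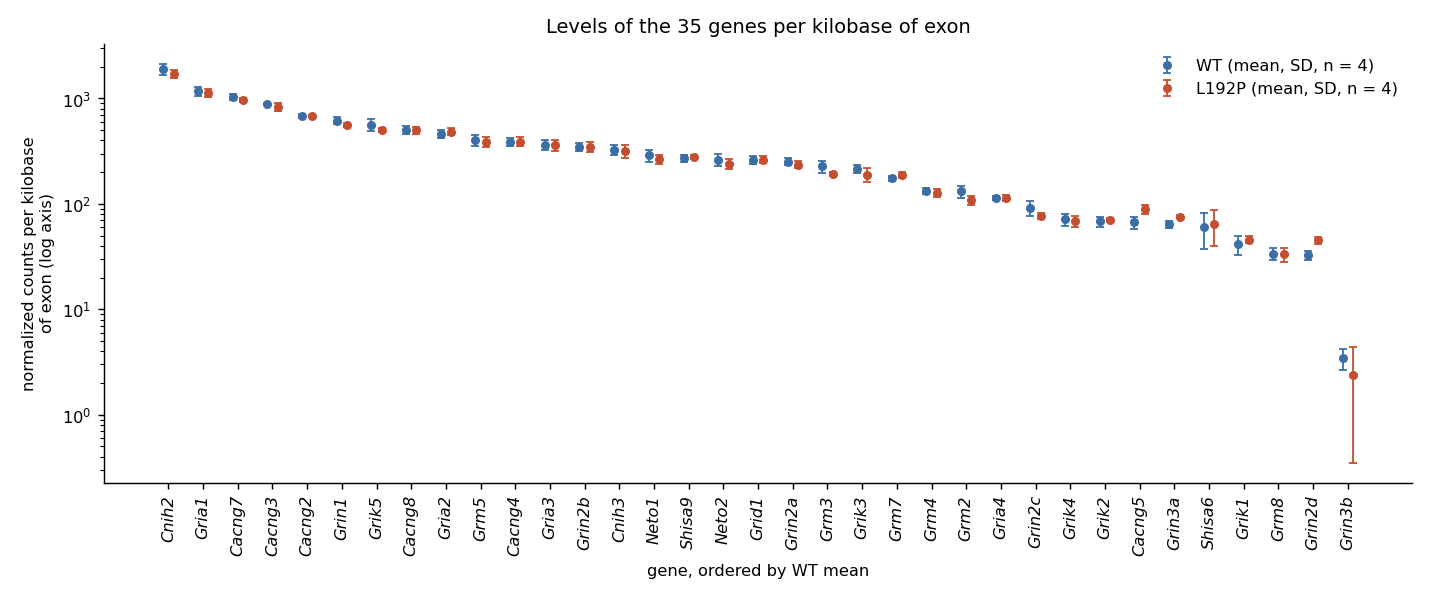
Normalized counts per kilobase of annotated exon (log axis) of the 35 genes in WT and L192P, as mean and SD over 4 libraries, ordered by the WT mean. Cnih2 is highest and Grin3b lowest, and Grin2d and Cacng5 lie among the 7 lowest genes.

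Seed matches were counted in the 3′ UTR of 34 of the genes. At least 1 of the 9 miRNA families had a match in 25 of them, and 9 had none, beside 5782 of 14891 genes without a match. The median UTR length was 2211 bases in these genes and 1362 over all, so the counts are not on an equal length. Grin2a and Grin2b, with UTRs of 9929 and 18865 bases, each held matches for 7 families, and their log2 fold changes were -0.09 and 0.01. Of the genes shown with their windows, Cacng5 and Grin3a were on the higher side and Grm2, Grm3 and Cnih2 on the lower. Matches occurred in 8 of the 34 genes for miR-181-5p and 8 for miR-137-3p (19.7% and 11.7% of all genes), and in 7 for miR-26-5p and 7 for miR-29-3p (12.1% and 16.7%). They occurred in 6 each for miR-125-5p, miR-25/92-3p and miR-5121 (17.2%, 8.07% and 11.2%), in 5 for miR-9-5p (15.5%) and in 3 for let-7-5p (11.6%). A match is a description of the sequence and was not tested for binding.

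The proteins that work with the receptors were read from 4 lists of 85 genes, of which 84 were tested. Among them 1 gene was called (beside 1.36% of all genes) and 19 had an unadjusted p under 0.05 (beside 9.44% of all genes). The called gene was Nptx2, which encodes a secreted pentraxin that gathers AMPA receptors at synapses on interneurons. It was lower in L192P, with 1308 ± 130 normalized counts against 1613 ± 35.9 in WT (n = 4), with no overlap between 1170.3 to 1430.45 and 1566 to 1645 (log2 fold change -0.30, SE 0.08, DESeq2 adjusted p = 0.0145). It was called in 9 of 17 alternatives (adjusted p 0.0025 to 0.123), and the call was lost with edgeR (0.111) and limma-voom (0.108), on replicates 2 to 4 (0.0596), and on leaving out replicate 1 or 3 of L192P (0.0603 and 0.123) or replicate 2, 3 or 4 of WT (0.0873, 0.0866 and 0.0593). The excitatory neuron and striatal marker sums were also lower in each L192P library than in any WT library. The excitatory ranges nearly met (at most 53709.7 in L192P and at least 53869 in WT). Of the 12 excitatory markers, 2 were on the higher side, Foxp2 and Rasgrf2. The part of these marker lists in the lower values of Nptx2, Grm2, Grm3 and Cnih2 was not tested. Nptx2 was the 1 of 26 tested assembly, modulation and linker genes to pass, and 5 of the 26 had an unadjusted p under 0.05. Of 23 postsynaptic scaffold and trafficking genes, 21 receptor kinases and phosphatases and 14 glutamate transport and recycling genes, DESeq2 called 0, with 7, 4 and 3 at an unadjusted p under 0.05. The median log2 fold changes of the 4 lists, in that order, were -0.05, -0.10, -0.02 and -0.07, beside 0.0019 over all genes.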

How the data were processed

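Poly(A) RNA of mouse cerebral cortex was measured in 4 L192P and 4 WT libraries (TruSeq Stranded mRNA). The authors aligned reads to GRCm39 with STAR and counted them per gene locus with featureCounts 1.5.1, and the deposited raw counts were used with no pooling. The submitters' processing notes name STAR 2.7.9a. The Ensembl release and the strand setting of counting are not given in the sources used here. A second deposited table of normalized values was not used.

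DESeq2 1.42.0 (R 4.3.3) was fitted on the whole table with genotype as the only term, and genes with a Benjamini-Hochberg adjusted p under 0.05 were called, with no minimum fold change. Independent filtering left 14037 genes without an adjusted p. Fold changes are not shrunk. Totals of 20396357 to 43575900 counts make fold changes of genes with few counts coarse. Alternatives were edgeR 4.0.16, limma 3.58.1 (voom), TMM and total-count factors, genes kept only with 10 or more counts in 4 or more libraries, no independent filtering, no Cook filter, the replicate block, replicates 2 to 4, and leaving out each library. DESeq2 without and with the replicate block, edgeR and limma-voom were run on simulated counts with known changes. The other alternatives were not simulated, and the simulated libraries shared no replicate effect.

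Same-numbered libraries deviated together (correlations 0.628, 0.381, 0.233 and 0.327 over 13422 genes, against -0.375 to 0.144 for other pairs). The labels' replicate numbers were therefore treated as pairing in the replicate block, the pair counts and the sign-flip test. The main DESeq2 fit, with genotype as its only term, did not use this pairing. No libraries agreed within sampling noise (chi-square per degree of freedom 5.52 to 22.6).

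Annotation was GENCODE M39 (98.8% of identifiers found). Seed matches of 7 bases were sought in the annotated 3′ UTR, and miR-124-3p was not analysed here. The members and lists were chosen with earlier results of these data known. Named with a value in every library were members with an adjusted p under 0.05, the member with the smallest adjusted p and the highest mean of each class, and Gria1, Gria2, Grin1, Grin2a, Grin2b and Grm5. Grin3a and Grm3 were added after their values were seen. The marker and pathway lists were given as counts and summed levels. Of 8 oligodendrocyte precursor, 9 oligodendrocyte, 8 microglia, 8 endothelial and mural, 7 choroid plexus and 10 immediate early genes, DESeq2 called 0, with 0, 0, 2, 0, 0 and 2 at an unadjusted p under 0.05. In that order, 1, 1, 7, 8, 4 and 0 had log2 fold changes above zero and 7, 8, 1, 0, 3 and 10 below. The immediate early sums overlapped (11401 to 15305 in L192P and 9286 to 22924 in WT). Of 9 hippocampus markers, Calb2 was called. Of the striatal markers, 1 is not reported here and was left out of their counts and sums.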

Additional observations from a re-analysis of the deposited data

Results flagged for a closer look

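Each gene's 4 libraries of a genotype were screened for a library whose gap to its nearest neighbour took most of the group's range (Dixon's ratio at the 95% level). Of 70 groups, 3 had such a library, beside about 3.5 given by chance. Grik2, which encodes the kainate subunit GluK2, was at 1328 normalized counts in WT replicate 1 and 1059 to 1102 in the other WT libraries (gap 0.840 of the range). Cnih3, a cornichon gene, was at 2497 in WT replicate 1 and 2024 to 2074 in the others (0.893). Grik4, which encodes GluK4, was at 784 in L192P replicate 3 and 610 to 636 in the others (0.851).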

How the results depend on the processing

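The 2 called members became 0 with edgeR, 0 with limma-voom, 1 with independent filtering off and 4 with the replicate block, and 0 (without L192P replicate 2 or WT replicate 4) to 6 (without WT replicate 1) when 1 library was left out. All genes called went from 253 to 53 with edgeR, 45 with limma-voom, 533 with the replicate block, 500 on replicates 2 to 4 and 112 to 496 when 1 library was left out. Total-count factors changed the split from 147 higher and 106 lower to 168 and 64. The replicate block, which pairs libraries by number, lost the call of Cacng5, added those of Grm2, Grm3 and Cnih2, and changed no other call of a member. The cause of these moves was not tested. The median log2 fold change of the members was -0.059 to 0.0029 with 1 library left out, above zero only without WT replicate 1. Both subunit ratios stayed below zero in every alternative run (Grin2a to Grin2b -0.13 to -0.07, Gria1 to Gria2 -0.17 to -0.04), and paired by number, an exact sign-flip test gave p = 0.125 for each, the smallest 4 pairs allow.

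Of 588 single-gene values under the alternatives, 514 kept direction and side of the threshold, 9 gained the call, 16 lost it and 49 changed sign. Log2 fold changes that changed sign were Gria3 with edgeR (0.0007), limma-voom (0.0049) and total-count factors (0.0228), Gria4 (-0.0031), Grm5 (0.0124) and Grm8 (0.0014) on replicates 2 to 4, Grm8 (0.0060) and Cacng8 (0.0159) with total-count factors, Cacng2 (-0.0005) and Cacng4 (-0.0044) with TMM factors, and Cacng4 with limma-voom (-0.0005). When 1 library was left out, the range of log2 fold changes crossed zero for Gria1 (-0.095 to 0.01), Gria3 (-0.0691 to 0.0598), Gria4 (-0.02 to 0.0534), Grin2b (-0.0353 to 0.0789), Grik2 (-0.004 to 0.115), Grik4 (-0.151 to 0.0124), Grid1 (-0.0223 to 0.0631), Grm5 (-0.109 to 0.028), Grm8 (-0.102 to 0.0514), Cacng2 (-0.0133 to 0.0283), Cacng4 (-0.0439 to 0.0577), Cacng8 (-0.058 to 0.0459), Shisa6 (-0.194 to 0.341) and Cnih3 (-0.132 to 0.0249). Genes with few counts, such as Grin3b, are limited by depth. The calls of marker genes held in 10 (Gad2), 14 (Penk), 12 (Calb2), 6 (Cplx3) and 16 (Avp) of 17 alternatives, 15 of 16 (Oxt) and 13 of 15 (Otp), the last 2 having no adjusted p in the others.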
